A study of Sus scrofa with 30 samples.

Results

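The livers of low birth weight and normal birth weight pigs that had been fed without restriction were compared at the last sampling of a feeding study. The comparison held 6 of the study's 30 arrays, chosen by their labels: 3 of low birth weight control pigs (UK_T3) and 3 of normal birth weight control pigs (NK_T3). All were female. Low birth weight meant 0.8 to 1.1 kg and normal birth weight 1.4 to 1.6 kg. Both groups were suckled until weaning on day 28, were then housed singly, and ate ad libitum throughout, also during the 3 weeks in which other pigs received 50% of ad libitum intake and during the 5 weeks of refeeding that followed. The age at this sampling, T3, is given as day 103 in the sample labels and as day 131 in the study's text. Each array carried RNA of 1 pig, and the 3 pigs of a group were separate animals drawn at random. Birth weight was a selected trait, not an assigned treatment. Which UK and NK pigs were littermates was not given in the sources used here.

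A piglet born light for its breed has usually grown slowly before birth, most often because the placenta supplied it poorly. The liver of such an animal is of interest because it makes glucose, fatty acids, cholesterol and plasma proteins, and because it secretes insulin-like growth factor 1 in response to growth hormone. Low birth weight has been linked to fat storage in the liver later in life, and the study asked whether birth weight alters the liver's response to a spell of scarce feed and to refeeding. The pigs compared here never met that spell, so the question answered by these 6 arrays is whether birth weight alone was accompanied by a difference in liver RNA at T3.

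Each array measured 60900 pig probes of 60 bases in 1 colour, and values are given as the log2 of the processed signal minus the 75th percentile of that signal on the same array. A value of 0 is thus the 75th percentile of the array, and a difference of 1 is a 2-fold change. The files name probes by number only, and the rows of the authors' deposited table are named by human protein identifiers, of which 0 of 19864 matched a name in the tables used here. Gene groups, the roles of single genes and the markers that would check the liver label are therefore not reported, and probes are described by their sequence. Tissue pieces hold several cell types, so a lower signal may mean fewer cells of a type or less RNA per cell, which cannot be told apart.

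NK_T3 replicate 1 stood apart from the other arrays. It was the only array of its scan, and 54.997% of its probes were well above background, against 65.9% to 68.7% on the other 5. UR_T3 replicate 2, an array of the restricted pigs on the same slide, had a lower share still, 53.6%. The signals of NK_T3 replicate 1 were written with 3 digits, those of the others with 7. Its correlation with the other 5 over 39816 probes lay between 0.910 and 0.953, while pairs among those 5 lay between 0.958 and 0.988. The labelling control E1A_r60_1 gave 109000 units on it and 263969 to 365432 units on the others, and E1A_r60_n9 gave 31300 against 62463 to 136729, while the other 8 of 10 such controls were not below the range of the others. Among the 6 arrays it was the highest or the lowest in 60.4% of probes, against 20.0% to 42.3% for the other 5. The median standard deviation of a probe was 0.50 in NK_T3, 0.36 in NK_T3 without that array (n = 2), and 0.34 in UK_T3. The comparisons below are given with and without it.

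No probe passed the test between UK_T3 and NK_T3. Of 39930 probes that were detected above background throughout at least 1 T3 group, 0 (0%) passed an adjusted p of 0.05 in limma with Benjamini-Hochberg adjustment, and 0 (0%) passed without NK_T3 replicate 1. At an unadjusted p under 0.05 stood 837 probes (2.1%), 395 higher and 442 lower in UK_T3, and without that array 530 (1.33%), 235 higher and 295 lower. The median standard error of a difference was 0.38, and 0.37 without the array, and with all 6 arrays the median 95% interval, with no adjustment for the number of probes, reached 0.83 to either side. The authors' table gave 0 of 19864 rows called (0%) and 683 (3.44%) at an unadjusted p under 0.05, and without the array 0 (0%) and 443 (2.23%).

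Differences of 2-fold or more in the means were seen at many probes, and most of those probes were not past that size once a single array was left out. A log2 difference of at least 1 was seen at 1171 probes in the direction of higher signal in UK_T3 and at 334 in the direction of lower signal. Without NK_T3 replicate 1 these counts were 378 and 211, and 191 and 96 probes were past that size in both. The direction of the difference was the same with and without it at 69.3% of probes. The median difference over all probes was 0.01 with the array and -0.04 without it. By the authors' values, 353 table rows were higher and 291 lower by at least 1, 214 and 148 without the array, and 115 and 84 in both. More probes and more rows were thus higher than lower at this size, with and without the array. A probe could be kept by detection in 1 group alone, also the one in which it was higher, so the probe counts depend on that filter. The part of the filter in this balance was not tested. The table's rows were not filtered.

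Counted by rank alone, the balance lay the other way. The 3 UK_T3 values were all above the 3 NK_T3 values at 782 of 39816 probes (1.96%) and all below them at 1839 (4.62%), so the groups were apart at 6.58%. Against NK_T3 replicates 2 and 3 only, they were all above at 1791 of 39867 probes (4.49%) and all below at 3325 (8.34%), together 12.8%. The table's rows were split alike, 453 above (2.28%) and 1028 below (5.18%), together 7.46%, or 1110 (5.59%) and 1715 (8.63%), together 14.2%, without the array. Rank separation needs no large difference, and 3 values against 3 cannot give an exact two-sided p under 0.1. With no group difference a share of 0.1 would be apart in this way, which is above the 6.58% and 7.46% seen. That share is larger with 1 array fewer, so the rise to 12.8% and 14.2% is not a result in itself. Detection gave few candidates for presence in 1 group only: 77 of 60900 probes (0.126%) were well above background on all 3 UK_T3 arrays and on no NK_T3 array, and 5 (0.00821%) the reverse. Without NK_T3 replicate 1 these were 86 (0.141%) and 78 (0.128%), so the imbalance went with that array.

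The signal of NK_T3 replicate 1 followed the base composition of the probe. A probe rich in G and C binds its target more tightly than one rich in A and T, because a G-C pair has more hydrogen bonds and stacks more strongly. For each probe the deviation of an array from the median of the 12 arrays of T3 was taken. At the 136 probes with at most 25% G and C, the median deviation of NK_T3 replicate 1 was -2.49, and on the other 5 arrays it was 0.05 and -0.17 in NK_T3 and 0.55, 0.02 and -0.02 in UK_T3. The 6 arrays of pigs restricted earlier lay between -0.27 and 0.29 at these probes. Between 25% and 30% the median of NK_T3 replicate 1 was -1.37 over 166 probes, and between 30% and 35% it was -0.15 over 5626. Its lowest medians thus lay at the probes poorest in G and C, of which 302 of the 39930 kept had 30% or less. Low values of this array were not confined to them. From 60% to 70% its median was -0.24 over 2951 probes, and it was the lowest of the 6 arrays at 34.2% of all probes.

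**Figure D1:**
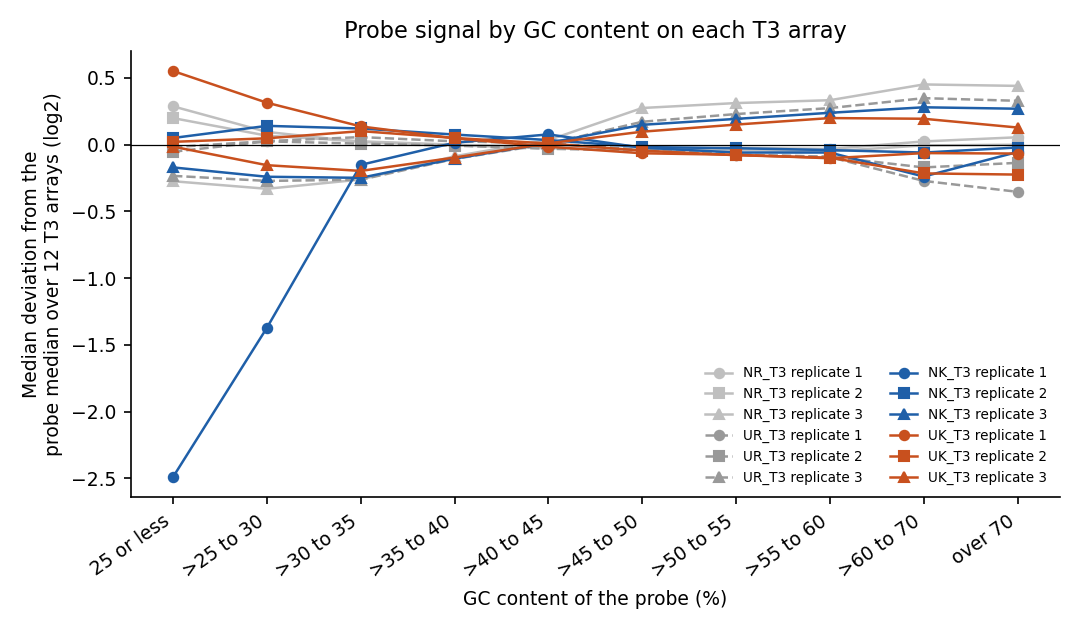
Median deviation of each of the 12 T3 arrays from the probe's median over those arrays (vertical axis, log2) in classes of probe G and C content (horizontal axis, %); each line is 1 array, blue NK_T3, orange UK_T3, grey the pigs restricted earlier. NK_T3 replicate 1 falls to -2.49 at 25% or less, and the replicate 3 arrays lie above the others at 60% and more.

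A shallower slope set the replicate 3 arrays apart. NK_T3 replicate 3 and UK_T3 replicate 3 shared slide 6 and scan 4 with the replicate 3 arrays of the pigs restricted earlier. At probes with 60% to 70% G and C their median deviations were 0.28 and 0.19, against -0.24 and -0.06 for replicates 1 and 2 of NK_T3 and -0.06 and -0.22 for those of UK_T3. The replicate 3 arrays of the restricted groups, at 0.45 and 0.35, lay on the same side. Each birth weight group has 1 array of this slide, so the slope enters both means. Without NK_T3 replicate 1 that array is 1 of 2 in NK_T3 and 1 of 3 in UK_T3, so the slope then enters the means unequally.

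The difference between the birth weight groups followed the same measure. With all 6 arrays the median difference of UK_T3 from NK_T3 was 1.08 at probes with at most 25% G and C, 0.56 from 25% to 30%, 0.14 from 30% to 35%, and -0.12 above 70%. Without NK_T3 replicate 1 it was 0.27, 0.13, 0.10 and -0.21, so that a smaller slope in the same direction was still present. In the classes from 40% to 70% the medians were nearly flat with all 6 arrays, between -0.03 and 0.002. Without that array they fell there from -0.02 to -0.15. Within scan 2, where UK_T3 replicates 1 and 2 stand against NK_T3 replicate 2, the median difference ran from 0.21 to -0.15 between the outer classes. Within scan 4, where replicate 3 stands against replicate 3, it ran from 0.14 to -0.19. In the pigs restricted earlier the difference of low from normal birth weight was -0.21 at 25% or less, -0.03 from 25% to 30%, 0.01 from 30% to 35%, -0.25 from 60% to 70% and -0.27 above 70%. These pigs thus shared the lower values at the probes richest in G and C, and not the higher values at the poorest. The part of base composition in the birth weight difference was not tested.

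**Figure D2:**
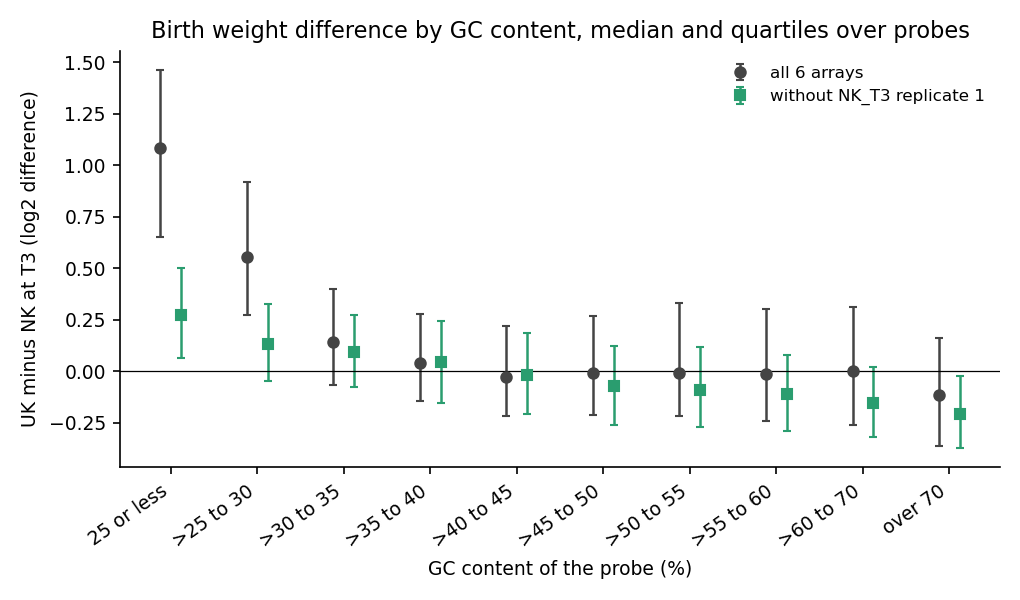
Median (symbol) and quartiles (bar) over probes of the UK_T3 minus NK_T3 difference (vertical axis, log2) by probe G and C content (horizontal axis, %), with all 6 arrays (grey circles) and without NK_T3 replicate 1 (green squares). The lowest class stands at 1.08 with that array and at 0.27 without it.

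Probes poor in G and C took a larger share of the probes higher in UK_T3 than of those lower. With the limit set at 30% they made up 0.756% of the kept probes, 107 of the 1171 probes higher by at least 1 in UK_T3 (9.14%) and 1 of the 334 lower by at least 1 (0.299%). Without NK_T3 replicate 1 they were 8 of 378 (2.12%) and 0 of 211. With the limit at 35% the share was 14.8% of all kept probes, 26.1% of those higher and 9.88% of those lower, and 22.5% and 11.8% without that array. No set test was made, and the shares are descriptions. The difference was also set against signal level. In 4 equal classes of probes from dimmest to brightest the median difference was 0.08, 0.01, 0.00 and -0.02, and -0.09, -0.04, -0.01 and -0.05 without the array.

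A single probe shows the pattern. Among probes with at most 25% G and C that were well above background on all 6 arrays, PigEx0057086 was the brightest, and it was picked after the values were seen. The files list it, like the probes named further on, as unmapped and without a description. In the sequence, written 5′ to 3′ as the files give the probe, capitals mark G and C, of which it holds 14 in 60 bases.

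PigEx0057086: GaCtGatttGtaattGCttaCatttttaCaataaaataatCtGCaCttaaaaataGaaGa

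Its values were -0.25, 5.65 and 5.43 in NK_T3 replicates 1 to 3 and 6.13, 5.86 and 6.07 in UK_T3. The first NK_T3 array was low and the other 5 lay close together. The means were 3.61 ± 3.35 (SD, n = 3) and 6.02 ± 0.14 (SD, n = 3), a difference of 2.41 with a standard error of 1.18, and without NK_T3 replicate 1 the difference was 0.48 with a standard error of 0.22. Neither passed in limma, with an adjusted p of 0.9998 and, without the array, 1.

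The probes with the largest separated differences were then taken in turn. Candidates were the probes detected above background on each of the 6 arrays whose UK_T3 and NK_T3 values did not overlap and whose unadjusted p was under 0.05, which held at 436 of 31942 so detected (1.36%), 129 higher and 307 lower in UK_T3. Since these were selected on the difference, their values are descriptions. NK_T3 replicate 1 was the lowest of the 6 arrays at 96 of the 129 higher probes (74.4%). It was the highest at 195 of the 307 lower ones (63.5%). The selection itself makes the array at that end an NK_T3 array. Over all 39816 probes, where any of the 6 arrays can be at the end, its shares were 34.2% and 26.2%. Those probes were also not limited to the 31942, so the shares are not a like baseline. Whether NK_T3 replicate 1 was in excess among the candidates was not tested. The median difference of the higher ones was 0.87, and 0.65 without that array, and of the lower ones -0.68 and -0.60. Of the higher ones 38.0% had at most 35% G and C, and of the lower ones 2.93%. Without the array 164 of the 436 still had an unadjusted p under 0.05.

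The sequences of the 2 probes with the largest difference in each direction are given because a sequence is what identifies them. Their composition does not stand for that of the largest differences. The 5 largest among the higher candidates ran from 25% to 71.7% G and C, with a median of 45%. The 5 largest among the lower ones ran from 41.7% to 76.7%. Capitals mark G and C, the strand is the one printed on the array, and the first pair was higher and the second pair lower in UK_T3.

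PigEx0027485: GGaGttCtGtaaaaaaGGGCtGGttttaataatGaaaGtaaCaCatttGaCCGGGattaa
PigEx0036491: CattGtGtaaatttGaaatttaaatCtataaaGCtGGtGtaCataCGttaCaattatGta
PigEx0038990: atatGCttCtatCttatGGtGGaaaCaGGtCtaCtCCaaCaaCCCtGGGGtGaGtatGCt
PigEx0008464: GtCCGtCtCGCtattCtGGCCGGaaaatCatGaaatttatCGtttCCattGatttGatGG

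PigEx0027485, with 35% G and C and a run of 10 bases of A and T, gave -1.22, 1.76 and -0.20 in NK_T3 and 3.18, 2.48 and 2.42 in UK_T3. The NK_T3 values spread over almost 3 units and the UK_T3 values over less than 1. The means were 0.11 ± 1.52 (SD, n = 3) and 2.69 ± 0.42 (SD, n = 3). The difference was 2.58 with a standard error of 1.04, a 5.99-fold higher mean, and 1.92 with a standard error of 1.12, 3.77-fold, without NK_T3 replicate 1. It was 1.07 within scan 2 and 2.62 within scan 4. In the pigs restricted earlier the probe had the opposite sign, with a difference of low from normal birth weight of -1.25, and the 2 differences were 3.84 apart (standard error 1.47), which did not pass in limma with an adjusted p of 0.9995, and 3.17 apart without NK_T3 replicate 1. The restricted low birth weight pigs lay between -3.63 and 0.48 (mean -1.04, SD 2.25, n = 3), so their lowest array weighs heavily on that sign. The restricted normal birth weight pigs lay between -0.96 and 1.10, and the ranges overlapped. At T2, the sampling that closed the restriction, control pigs differed by 1.42 at this probe, and at T1, the sampling ahead of it, the birth weight groups differed by -0.58. The sign of the mean difference at this probe was thus not constant over the study.

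PigEx0036491, with 25% G and C, belonged to the class in which NK_T3 replicate 1 was low. It gave -1.73, 0.59 and 1.83 in NK_T3 and 3.05, 2.45 and 2.27 in UK_T3. The first NK_T3 array was the lowest and the third came close to the lowest UK_T3 array. The means were 0.23 ± 1.80 (SD, n = 3) and 2.59 ± 0.41 (SD, n = 3). The difference of 2.36, with a standard error of 0.77, was 1.38 with a standard error of 0.58 without that array, 2.16 within scan 2 and 0.44 within scan 4. Once each array was adjusted for probe composition it was 1.30, and 1.11 without NK_T3 replicate 1. Other birth weight comparisons at this probe gave -0.12 in the pigs restricted earlier at T3, 0.10 in control pigs at T2 and -0.13 at T1. The restricted normal birth weight pigs at T3 lay between 1.14 and 2.86. NK_T3 replicate 3 lay within that range and replicates 1 and 2 below it, and the NK_T3 mean was 1.21 without replicate 1.

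PigEx0038990, with 45% G and C, was the probe of these 4 whose difference moved least without NK_T3 replicate 1. It gave -1.81, -2.28 and -1.42 in NK_T3 and -3.53, -2.72 and -4.35 in UK_T3. NK_T3 replicate 1 lay between the other NK_T3 arrays. The means were -1.84 ± 0.43 (SD, n = 3) and -3.53 ± 0.81 (SD, n = 3), a difference of -1.70 with a standard error of 0.52, and -1.68 with a standard error of 0.61 without that array, a mean 3.24-fold and 3.21-fold lower. The difference was -0.84 within scan 2 and -2.93 within scan 4. The signals were dim, and with normexp background correction, an alternative listed below, the difference was -1.04. The folds thus depend on the low end of the scale. Low birth weight pigs were also below normal birth weight pigs at this probe in the 3 other comparisons named, by -0.37 in restricted pigs at T3, -0.33 in control pigs at T2 and -0.93 at T1. All 4 signs were the same, but in each of those 3 the ranges of the 2 birth weight groups overlapped. No value is given for the restricted pigs at T2. The probe did not pass at T3, where its adjusted p was 0.9998 in limma.

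PigEx0008464, with 41.7% G and C, rested on the 1 array. It gave 0.34, -2.82 and -2.94 in NK_T3 and -3.75, -3.04 and -3.71 in UK_T3. NK_T3 replicate 1 was more than 3 units above the other 5. The means were -1.81 ± 1.86 (SD, n = 3) and -3.50 ± 0.40 (SD, n = 3), and the difference of -1.69, with a standard error of 0.69, was -0.62 with a standard error of 0.28 without it. The 6 arrays of restricted pigs at T3 lay between -3.37 and -2.88 at this probe. With normexp background correction and NK_T3 replicate 1 kept, the difference of UK_T3 from NK_T3 was -0.72.

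**Figure D3:**
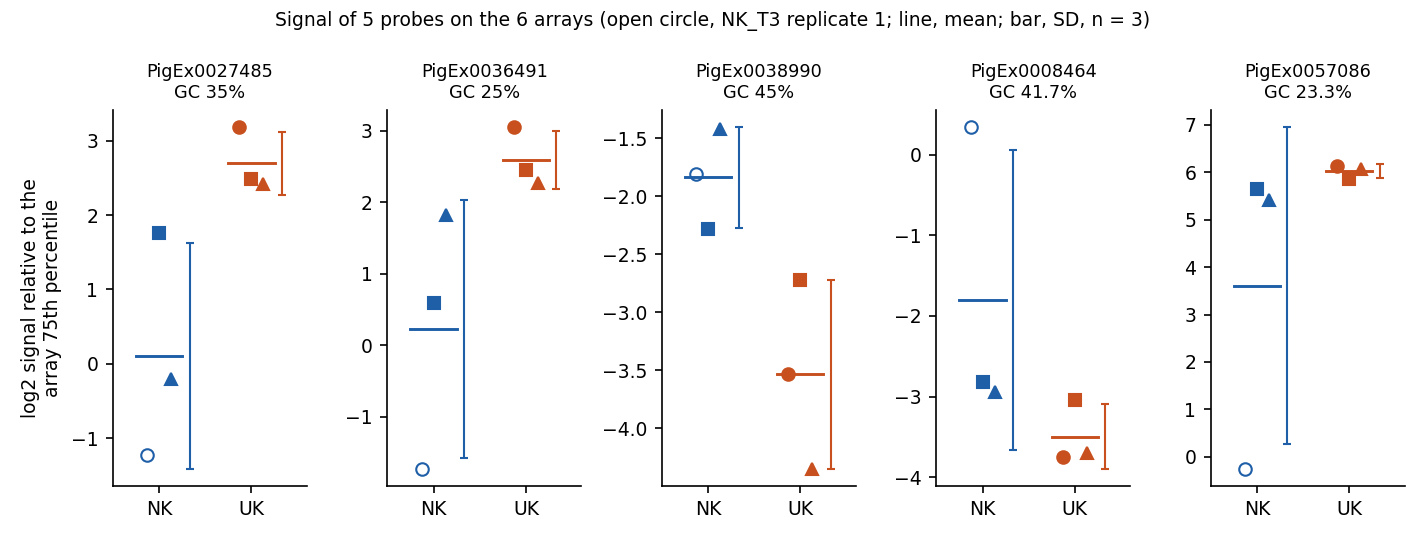
Signal of 5 probes (vertical axis, log2 relative to the array's 75th percentile; each panel has its own range) on the 3 NK_T3 (blue) and 3 UK_T3 (orange) arrays, with the mean (line) and SD (bar, n = 3); circles are replicate 1, squares replicate 2, triangles replicate 3, and the open circle is NK_T3 replicate 1. That array is the extreme NK_T3 value at 4 of the 5 probes, PigEx0038990 being the exception.

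Rows of the authors' table showed the same kinds of pattern on the log2 scale. ENSP00000285379 stood at 3.51, 8.70 and 6.68 in NK_T3 and at 9.83, 9.15 and 8.80 in UK_T3, a difference of 2.96 with a standard error of 1.11, and 1.57 with a standard error of 0.82 without NK_T3 replicate 1. ENSP00000366109 stood at 1.96, 1.81 and 1.89 in NK_T3 and at 6.19, 4.89 and 2.41 in UK_T3, with differences of 2.61 and, without that array, 2.65. Its NK_T3 values were near the 5th percentile of the columns, 1.85 to 1.89, and the table has no mark of detection, so no fold is given. In this row UK_T3 replicate 3 lay close to NK_T3, and without UK_T3 replicate 3 the difference was 3.65 and was the only one called in limma, with an adjusted p of 0.0379 in a range of 0.0379 to 1 over the alternatives.

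In each of the 2 lower rows named, 1 NK_T3 animal was far above the others. ENSP00000381556 stood at 8.75, 3.77 and 2.29 in NK_T3 and at 1.96, 1.96 and 1.72 in UK_T3, and its difference of -3.05 was -1.15 without NK_T3 replicate 1. ENSP00000351706 stood at 3.50, 2.87 and 8.77 in NK_T3 and at 2, 2.07 and 2.04 in UK_T3, and there NK_T3 replicate 3 was the high array, so the difference of -3.01 was -3.78 without replicate 1 and -1.15 without replicate 3. The UK_T3 values of both rows were near the 5th percentile of the columns, so these differences depend on the low end of the scale: with a pseudocount of 16 they were -1.72 and -1.71, and that of ENSP00000366109 was 1.17.

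Probes that overlap in sequence were set against each other. Of 3033 pairs of probes sharing at least 20 bases, 1903 were kept, and the 2 probes of a pair differed between UK_T3 and NK_T3 in the same direction in 82.2% of them, and in 81.8% without NK_T3 replicate 1. The correlation of their differences was 0.56, and 0.73 without that array. Of 145 pairs in which at least 1 of the 2 differences was at least 1 in size, 134 had the same sign, and 22 of 28 without that array. Paired probes share the animals, the arrays and part of their bases, and so part of the base composition that the difference followed. Whether they share more than that was not tested, and pairs without shared bases were not set beside them. The agreement describes the 6 arrays and not how repeatable the birth weight difference is over animals.

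Between scans the difference was barely repeatable. The difference within scan 2 and that within scan 4, which have no array in common, correlated at 0.10 over 39889 probes and had the same sign at 56.0%, and over the table's rows at 0.07 and 52.3%. At least 1 in size were 1415 probes within scan 2 and 1404 within scan 4. Scan 3 held NK_T3 replicate 1 alone and gives no value of its own. Within slide 4, where UK_T3 replicate 2 stood against NK_T3 replicates 1 and 2, 3370 probes differed by at least 1. Each of these sets a single array on at least 1 side, so none has a test.

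The birth weight difference was not shown to depend on earlier feeding. The contrast of the difference in control pigs with that in pigs restricted earlier (UR_T3 against NR_T3) called 0 of 39929 probes (0%) in limma, and 921 (2.31%) stood at an unadjusted p under 0.05, 682 of them more positive in control pigs. Without NK_T3 replicate 1 it called 0 (0%), with 669 (1.68%). The table gave 0 (0%) with 598 (3.01%), and without the array 0 (0%) with 446 (2.25%). In the restricted pigs' own comparison 0 probes (0%) passed, and 771 (1.93%) had an unadjusted p under 0.05; the table gave 0 rows (0%) and 415 (2.09%). The 2 differences share no array, and over probes they correlated at -0.22, and at 0.08 without NK_T3 replicate 1.

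Nor was a change from the preceding sampling found. The birth weight difference of control pigs at T3 against that at T2 called 0 of 40536 probes (0%) in limma, with 687 (1.69%) at an unadjusted p under 0.05, and without NK_T3 replicate 1 called 0 (0%), with 851 (2.1%). Of the 782 probes at which all UK_T3 values lay above all NK_T3 values, 60.9% were also higher in low birth weight control pigs at T2, against 53.7% of all probes, and of the 1839 below, 36.4% were. Without NK_T3 replicate 1 these shares were 54.4% and 41.4%. At T1 the same sets gave 39.6% and 58.1%, against 51.8% of all probes, and 37.0% and 58.0% without the array, which is the opposite order. These comparisons share no array with T3. In the restricted pigs the shares were 43.7% and 50.3% at T2, against 50.8% of all probes, and 41.6% and 54.9% at T3, against 45.9%. Leaving out NK_T3 replicate 1 made them 43.4% and 50.5% at T2 and 54.997% and 49.9% at T3. Over all probes the T3 difference of control pigs correlated with that at T2 at 0.21, and at -0.04 without that array. The direction at T3 was thus not met again in all of these comparisons, and at T2 the higher set was near the share of all probes without that array.

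Over 20 alternatives the comparison of UK_T3 with NK_T3 called 0 probes each time in limma, while the number at an unadjusted p under 0.05 moved widely. That number ran from 346 without UK_T3 replicate 1 to 3424 with array weights, which is 8.58% of the probes. Leaving out NK_T3 replicate 3 gave 3406, leaving out NK_T3 replicate 2 gave 1758, and leaving out UK_T3 replicates 2 and 3 gave 863 and 854. The array weights, which scale each array by how well it follows its group, were 0.211 for NK_T3 replicate 1 and 2.40 and 0.391 for replicates 2 and 3, and 2.55, 1.27 and 0.497 for UK_T3. With slide as a block there were 1423, with scan as a block 1996, and with slide as a block and without NK_T3 replicate 1 there were 2157.

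**Figure D4:**
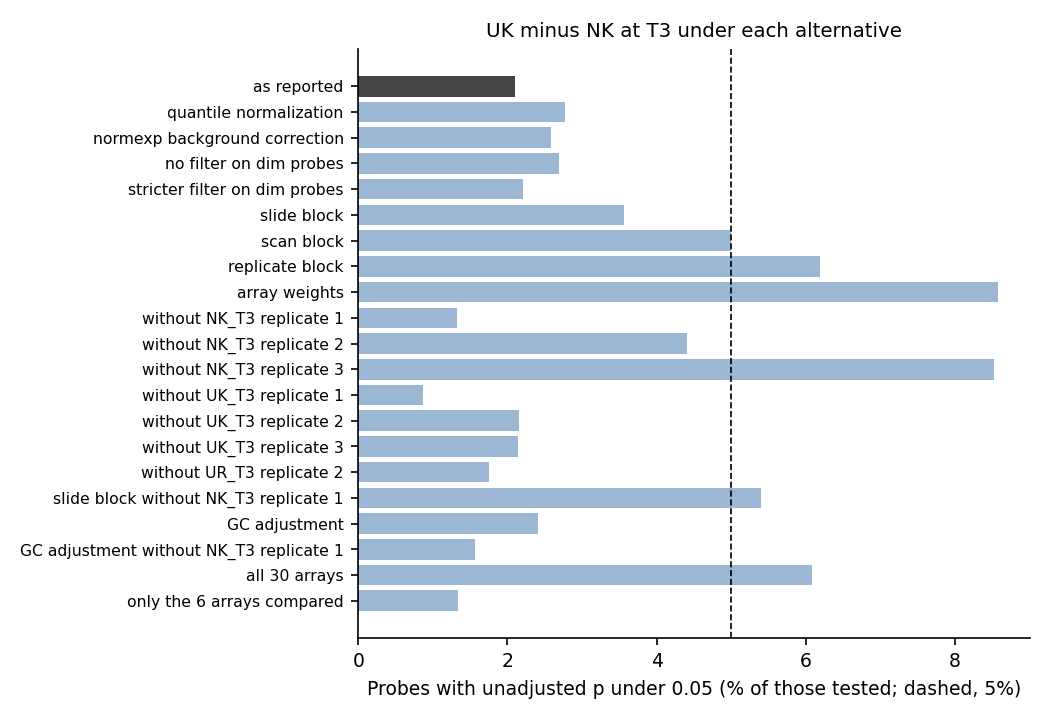
Share of tested probes with an unadjusted p under 0.05 in the comparison of UK_T3 with NK_T3 (horizontal axis, %), as reported (dark bar) and under 20 alternatives (light bars); the dashed line marks 5%. The share runs from 0.87% to 8.58%, and no setting gave a probe with an adjusted p under 0.05.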

How the data were processed

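Total RNA of pig liver was labelled with Cy3 and hybridised to 1-colour Agilent arrays, per the labels' protocols. Per the file headers, spots were quantified with Feature Extraction 10.5.1.1, which subtracted background, and the intensity used here was not scaled between arrays. The authors' deposited table holds 19864 rows of intensity; how it was made is not given in the sources used here, and its T3 columns nearly coincide when sorted (5th percentile 1.85 to 1.89, median 5.78 to 5.82 on the log2 scale), so its scale was taken as comparable within T3 only.

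From the scanner files, log2 signal minus the array's 75th percentile was computed without control spots. Outlier spots (3 to 94 on these 6 arrays) were set missing, and no spot was saturated. A mean per group was fitted to the 12 T3 arrays (24 with T2) with limma 3.58.1 in R 4.3.3 (8 residual and 3.06 prior degrees of freedom), and p-values were two-sided. For the table, log2 with a pseudocount of 0 was used on all rows. Base composition came from the probe sequences in the files (Python 3.11.15, pandas 2.3.3). With 3 arrays in a group, their number sets the precision.

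Alternatives were quantile normalization, normexp (offset 50), no or a stricter filter, a block for slide, for scan or for replicate number, array weights, other sets of arrays, and each array left out; for the table, a pseudocount of 16, another scaling, and the dimmest rows left out. Added after seeing the data were the fit without UR_T3 replicate 2, the slide block without NK_T3 replicate 1, and an adjustment of each array for G and C content. The rule named the probes with the largest non-overlapping differences among those well above background on all 6 arrays with an unadjusted p under 0.05, here 2 per direction, and likewise table rows. The 28 gene lists drawn up were not applied, since 0 rows and 0 probes matched a name. Members, lists and alternatives were chosen with earlier results of these data known. The arrays were not treated as paired by replicate number in the main fit. Deviations from the group means correlated at 0.04, 0.18 and 0.67 for replicates 1, 2 and 3, and both replicate 3 arrays share a slide and a scan. Between arrays of different number the correlations lay between -0.65 and 0.47. Deviations sum to 0 within a group, so these values cannot exclude pairing.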

Additional observations from a re-analysis of the deposited data

How the results depend on the processing

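For the comparison of UK_T3 with NK_T3 in probes, no alternative gave a call in limma. Of the 4 probes and 4 table rows named none changed direction under any alternative run. They were picked for values that did not overlap between the groups, so leaving out an array could not reverse them. Their constant sign is thus no measure of robustness. Calls appeared in few places. With array weights the change from T2 to T3 had 5 called probes, 2 more positive and 3 more negative at T3 (PigEx0033180, PigEx0034898, PigEx0059763, PigEx0059764 and PigEx0059765, named after their values were seen). Leaving out 1 array at a time gave 0 to 1 calls for that change, the 1 being PigEx0034898 without NK_T3 replicate 3. It gave 0 to 1 for the contrast with restricted pigs in probes, the 1 being PigEx0036093 without UK_T3 replicate 2, with a difference of 7.41 against 5.85 with all arrays. It gave 0 to 1 for UK_T3 against NK_T3 in the authors' table, the 1 being ENSP00000366109 without UK_T3 replicate 3. With a replicate block there were 0 calls in all 5 results, and for UK_T3 against NK_T3 2474 probes and 1255 rows stood at an unadjusted p under 0.05. Among arrays of the same replicate number, only the replicate 3 arrays deviated together clearly. The deviations of NK_T3 replicate 1 and UK_T3 replicate 2, which share slide 4, correlated at 0.47. NK_T3 replicate 2 is on that slide too, and its deviations correlated at 0.18 with those of UK_T3 replicate 2. With those of UK_T3 replicate 1, on slide 3, they correlated at 0.28. Quantile normalization gave 1105 probes at an unadjusted p under 0.05 (500 higher, 605 lower) and normexp 1030 (258 higher, 772 lower). No filter on dim probes gave 1638 (417 higher, 1221 lower) and the stricter filter 667 (241 higher, 426 lower). All 30 arrays in the fit gave 2500 and the 6 arrays alone 535. The adjustment for G and C content gave 964 (546 higher, 418 lower), and 624 without NK_T3 replicate 1. In the table the alternatives gave 405 to 1650. The cause of these shifts was not tested. Of the 60900 probes, the 39930 well above background throughout a T3 group were tested, so dimmer ones have no result except with no filter.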
